A study of Mus musculus with 6 samples.

Results

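Mfap1a, Mfap1b, Prpf38a, Prpf38b, Smu1, Ik and Zmat2 were examined in E12.5 mouse testes lacking Ppp1r3c in somatic cells, to ask whether the higher Mfap1a level in the mutant testes was shared by its near-identical copy and by the genes of the proteins it works with. These 7 genes, of 24470 in the count table, were chosen by the measured level of Mfap1a in the comparison of mutant with control testes, and the other 6 by their relation to it, so the difference in Mfap1a is given as a description only. All 7 passed the filter on low counts. RNA from whole testes was sequenced from 3 control samples of genotype Ppp1r3c f/f and 3 conditional knockout (cKO) samples, which carried Sf1-Cre in addition to the floxed alleles. The floxed alleles were thus common to both groups, on a C57BL/6 background, and each sample pooled the gonads of more than 1 embryo. Sf1-Cre, driven by regulatory sequence of Nr5a1, works in somatic gonad cells, Sertoli cell progenitors among them, and the germ cells keep the gene. The controls carried no Cre, so that the presence of the transgene and the loss of Ppp1r3c cannot be told apart.

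Ppp1r3c encodes a subunit that brings protein phosphatase 1 to glycogen. The 7 genes belong to a different process, the removal of introns from pre-mRNA. The spliceosome is rebuilt on each intron: the U1 and U2 particles recognise its ends, the tri-snRNP then joins, and this B complex is held by a small set of proteins that leave again when the catalytic centre forms. MFAP1, named for an early link to elastic fibre microfibrils but a nuclear splicing protein, is one of them, and it binds PRPF38A, which also contacts ZMAT2. SMU1 and IK (also called RED) form a second unit of the B complex, and PRPF38B is a relative of PRPF38A. The mouse carries a pair of Mfap1 genes, Mfap1a and Mfap1b.

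The sequences of this pair determine how far their reads can be told apart. Mfap1a (gene ID 67532, mm10 chr2:121492681-121506656, minus strand) and Mfap1b (gene ID 100034361, mm10 chr2:121461666-121474023, minus strand) lie in the same orientation with 18.7 kb between them. Their coding sequences in the GENCODE vM21 annotation were both 1320 bases long with 0 differing bases, that is 439 identical codons. The first 90 coding bases are shown as an example of the shared part, with the start codon in capitals, and the same letters belong to both genes.

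Mfap1a and Mfap1b: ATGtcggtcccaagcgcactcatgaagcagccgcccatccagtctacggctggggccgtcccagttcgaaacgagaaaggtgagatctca

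Outside the coding sequence the copies differed. The transcript of Mfap1a was 3419 bases long, with 1984 bases after the stop codon, and that of Mfap1b was 1887 bases long, with 456. Of all stretches of 150 bases, about the length of 1 read, 53.3% of those in Mfap1a also occurred in Mfap1b, and 86.0% of those in Mfap1b occurred in Mfap1a. This left 1528 stretches found only in Mfap1a and 244 only in Mfap1b. The libraries were paired-end, and a pair can be told apart by either of its reads, which stretches of 1 read do not take into account. A read that lies wholly in the common part fits both genes. The settings stated for featureCounts hold no option to count such reads, so they were probably left out. The separate counts of the copies are therefore uncertain, while their sum does not depend on how shared reads were divided between them, although it would miss reads left out for matching both.

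The promoters were compared because the copies differ there while their coding sequences do not. RefSeq windows of 300 bases (250 before and 50 after the start, GRCm38.p6, minus strand) were available for 4 of the 7 genes, and those of the pair are chr2:121506607-121506906 for Mfap1a and chr2:121473974-121474273 for Mfap1b. Capitals mark the bases that differ or have no counterpart in the other copy.
Mfap1a: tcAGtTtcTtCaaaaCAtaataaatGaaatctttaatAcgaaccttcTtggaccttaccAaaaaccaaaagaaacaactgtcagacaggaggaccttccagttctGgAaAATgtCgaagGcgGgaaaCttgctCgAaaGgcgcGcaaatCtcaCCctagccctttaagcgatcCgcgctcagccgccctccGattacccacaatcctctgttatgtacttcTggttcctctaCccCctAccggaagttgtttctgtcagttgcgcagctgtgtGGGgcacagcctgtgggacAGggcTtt
Mfap1b: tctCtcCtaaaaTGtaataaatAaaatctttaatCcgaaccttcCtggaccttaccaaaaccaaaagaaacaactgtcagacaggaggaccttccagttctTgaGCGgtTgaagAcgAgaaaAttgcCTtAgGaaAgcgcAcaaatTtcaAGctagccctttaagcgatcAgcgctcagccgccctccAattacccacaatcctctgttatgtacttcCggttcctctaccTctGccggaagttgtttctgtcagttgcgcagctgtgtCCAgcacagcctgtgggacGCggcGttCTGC

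In these windows 261 of 300 bases (87.0%) were the same, and 39 differed or were unmatched. On either strand, the ETS core CCGGAA was found once in the Mfap1a window and at 2 places in that of Mfap1b, and it occurred in 14.9% of all RefSeq promoter windows of this length. CCAAT was absent from the Mfap1a window and found once in that of Mfap1b (37.4% of all windows), and CCGCCC was found once in each (35.7% of all windows). These matches are letters only. The Mfap1a window also holds the start of Wdr76, which is read in the opposite direction from a point 67 bases away.

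The libraries held 16139487 counts (control 1, the shallowest) to 44145158 counts. Ppp1r3c, the deleted gene, lay at 22.1 to 24.4 CPM (counts scaled to a common library size, with TMM factors) in the controls and 4.71 to 5.96 CPM in the cKO samples (log2 fold change -2.11, edgeR FDR 1.26e-04). The Sertoli cell genes Sox9, Amh and Dmrt1 were present in all 6 samples, at 155 to 213, 588 to 920 and 35.5 to 47.2 CPM. One library stood apart: in cKO 3, Xist lay at 379 CPM against 0.369 to 0.770 CPM in 4 other libraries and about 1 CPM in control 3, and Fst, a gene of ovarian supporting cells, at 50.9 CPM against 0.366 to 2.02 CPM in the rest. Values without cKO 3 are given where they matter. The 10 germ cell markers summed to 566 to 936 CPM in the controls and 289 to 595 CPM in the cKO samples, 10 of 10 had negative log2 fold changes (median -0.86), and none was called by edgeR (8 at an unadjusted p below 0.05), whereas DESeq2 called Mael. Markers of other cells differed in both directions. The 6 markers of pre-granulosa cells, the supporting cells of the ovary, all had positive log2 fold changes (median 1.02, 0.30 without cKO 3), 4 at an unadjusted edgeR p below 0.05, and their sum was 101 to 111 CPM in the controls, 106 and 108 CPM in cKO 2 and cKO 1 and 281 CPM in cKO 3. The 6 mesonephros markers, of the kidney rudiment beside the gonad, summed to 106 to 118 CPM in the controls and 114 to 171 CPM in the cKO samples. Of the 5 tested, 3 (Pax2, Pax8 and Emx2) were higher in each cKO sample than in each control, as were 8.42% of all tested genes. These 3 had an unadjusted edgeR p below 0.05. Of the 5 log2 fold changes, 4 were positive and 1 was negative, at -0.78, with a median of 0.51 (0.32 without cKO 3). The 5 fetal Leydig cell markers all had negative log2 fold changes (median -0.31, -0.045 without cKO 3). Of the 8 Sertoli cell markers, 6 had negative and 2 positive log2 fold changes, the 2 positive at an unadjusted edgeR p below 0.05. No pre-granulosa, mesonephros, Leydig or Sertoli marker was called by edgeR or DESeq2. In such bulk RNA, fewer cells of a type and less RNA per cell cannot be told apart. The part of these markers in the results below was not tested.

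Mfap1a was higher in every cKO sample than in any control. Its level was 25.3, 27.1 and 26.3 CPM in controls 1 to 3 and 42.4, 40.3 and 44.3 CPM in cKO 1 to 3. The spread within each group was small beside the distance between them, with means of 26.2 ± 0.884 and 42.4 ± 2.01 CPM (SD, n = 3). The log2 fold change from edgeR was 0.69 (SE 0.0660, 95% interval 0.54 to 0.84), and the raw counts behind it were 411 to 1196 in the controls and 1450 to 1700 in the cKO samples. Leaving out each library in turn gave 0.66 to 0.72. Mfap1a nevertheless did not pass an edgeR FDR of 0.05 without control 1 (FDR 0.0522), control 3 (0.0868) or cKO 3 (0.0635).

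Mfap1b, the copy, was also higher in each cKO sample than in each control, by less and with fewer counts. It lay at 9.54, 7.92 and 9.44 CPM in controls 1 to 3 and at 12.0, 11.1 and 10.5 CPM in cKO 1 to 3. The groups did not overlap, but the highest control and the lowest cKO sample were less than 1 CPM apart. The means were 8.97 ± 0.908 and 11.2 ± 0.767 CPM (SD, n = 3), a log2 fold change of 0.33 (SE 0.118, 95% interval 0.062 to 0.59). The edgeR FDR over all genes was 0.382 and the DESeq2 FDR 0.323, so the difference did not pass the test. Its value was 0.23 without control 2 and 0.37 without cKO 3.

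None of the remaining partner genes passed the test, and each of their intervals included 0. Prpf38a, whose product binds MFAP1, lay at 63.7, 73.5 and 65.0 CPM in controls 1 to 3 and at 64.0, 61.7 and 69.2 CPM in cKO 1 to 3. The groups overlapped. Its log2 fold change was -0.055 (SE 0.0760, 95% interval -0.23 to 0.12, edgeR FDR 0.814).

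Zmat2, the counterpart of the yeast protein Snu23, lay at 97.4, 104 and 97.5 CPM in the controls and at 97.9, 87.9 and 96.1 CPM in the cKO samples. The groups overlapped, with cKO 2 lowest. The log2 fold change was -0.084 (SE 0.0619, 95% interval -0.22 to 0.056, edgeR FDR 0.625). Prpf38b was the only one of these 5 with a positive value: controls lay at 143, 135 and 145 CPM and cKO samples at 149, 139 and 143 CPM. This gave 0.031 on the log2 scale (SE 0.0529, 95% interval -0.088 to 0.15, edgeR FDR 0.862), within the spread of the replicates.

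The unit of Smu1 and Ik was slightly lower in the cKO samples, without passing the test. Smu1 lay at 127, 138 and 137 CPM in the controls and at 129, 120 and 123 CPM in the cKO samples. Control 1, the shallowest library, fell below cKO 1, and the log2 fold change was -0.11 (SE 0.0558, 95% interval -0.23 to 0.017, edgeR FDR 0.486). Ik lay at 172, 178 and 172 CPM in the controls and at 168, 165 and 170 CPM in the cKO samples. All 3 cKO values of Ik were below all 3 control values, but by a small margin: its log2 fold change was -0.051 (SE 0.0466, 95% interval -0.16 to 0.053, edgeR FDR 0.695).

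**Figure D1:**
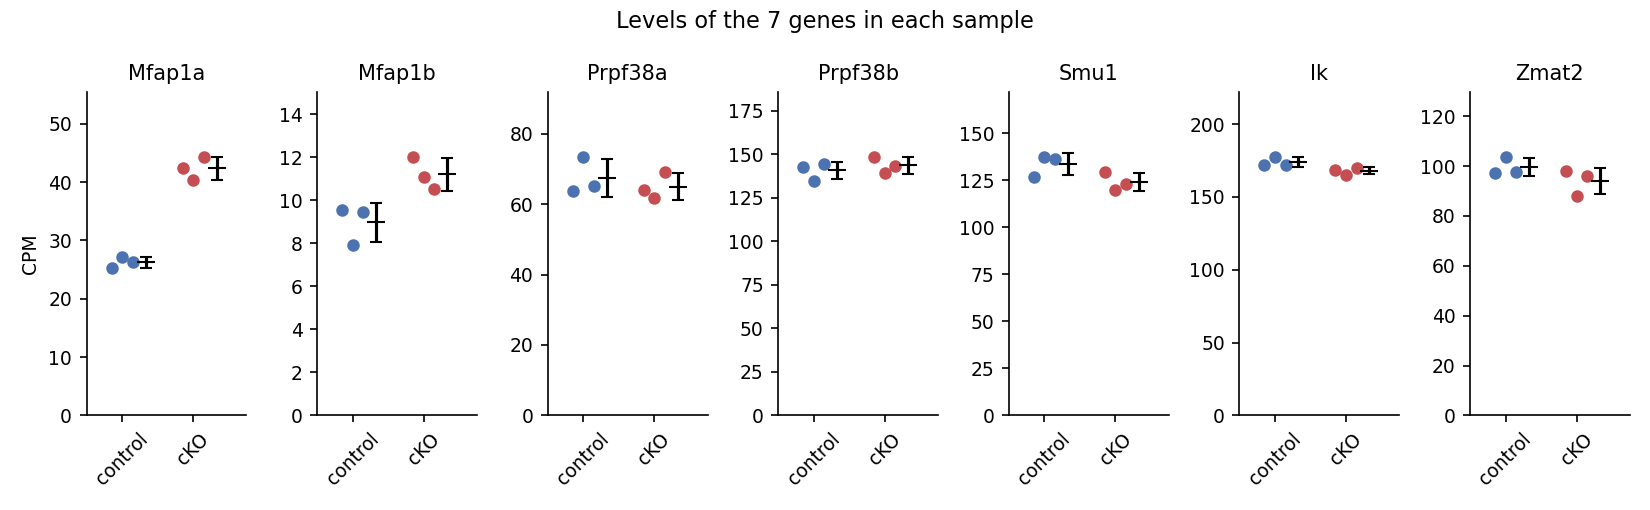
Level of each gene (vertical axis, CPM, from 0, with its own scale in each panel) in the control (blue) and cKO (red) samples, each point being 1 sample in the order 1 to 3, with the mean and SD in black. The groups are apart for Mfap1a (25.3 to 27.1 against 40.3 to 44.3 CPM), less so for Mfap1b and Ik, and overlap for Prpf38a, Prpf38b, Smu1 and Zmat2.

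Of the 7 genes, edgeR called 1 (Mfap1a), against 0.0385% of all 15577 tested genes in either direction and 0.0321% in the higher direction. DESeq2 also called 1, Mfap1a, against 0.779% of the genes it gave an adjusted p. At an unadjusted edgeR p below 0.05 there were 2, Mfap1a and Mfap1b, against 11.4% of all genes. Groups that did not overlap were seen for 2 genes higher in the cKO (8.42% of all genes) and for 1 lower, Ik (7.17% of all genes). Because Mfap1a chose the list, nothing is read from these counts.

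The intervals of the 5 partner genes reached from -0.23 at the lowest to 0.15 at the highest, and changes within them in either direction cannot be told from 0 with 3 samples a group. Differences between the members, the copies included, were not tested.

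**Figure D2:**
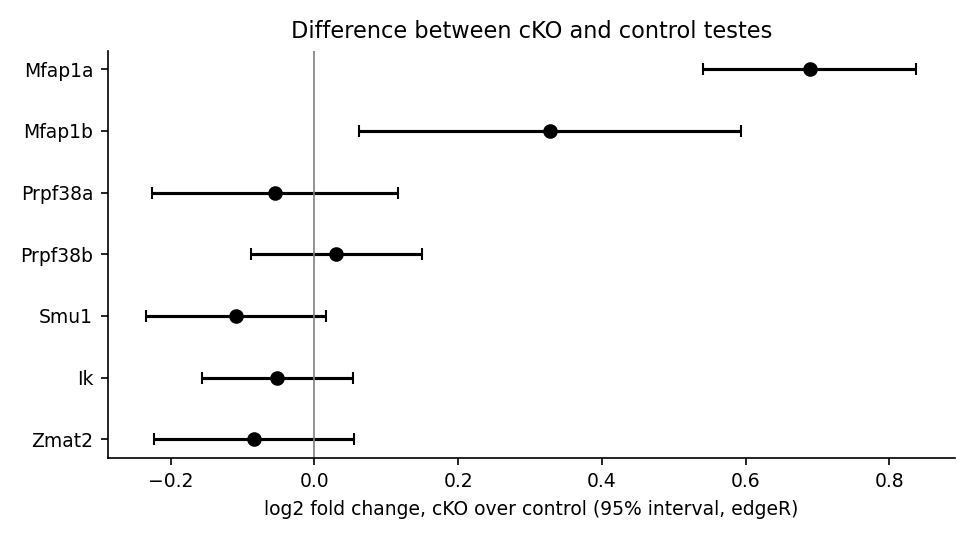
Log2 fold change of each gene, cKO over control (horizontal axis), with its 95% interval from the edgeR fit across all genes. Mfap1a stands at 0.69, Mfap1b at 0.33, and the intervals of the other 5 genes all include 0.

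The counts of the copies were then summed. This takes the split of shared reads out of the comparison only if such reads were counted. If they were left out, the sum rests on stretches found in 1 copy only, 1528 of Mfap1a and 244 of Mfap1b. It then weighs Mfap1a more and is not the total transcript of the pair. The sum was 34.8, 35.0 and 35.7 CPM in controls 1 to 3 and 54.4, 51.4 and 54.8 CPM in cKO 1 to 3. The group means were 35.2 ± 0.468 and 53.6 ± 1.87 CPM (SD, n = 3), a ratio of 1.52. The groups did not overlap in this sum, which holds the counts of Mfap1a and so is a description as well.

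Mfap1a made up 72.6% (95% Wilson interval 68.8 to 76.1), 77.4% (75.2 to 79.4) and 73.6% (71.2 to 75.8) of the sum in controls 1 to 3. In cKO 1 to 3 its share was 77.9% (76.1 to 79.6), 78.4% (76.5 to 80.2) and 80.9% (79.0 to 82.6), where the intervals cover counting error only. The share was higher in all 3 cKO samples, but control 2 lay within the intervals of cKO 1 and cKO 2. Divided by the number of stretches found in only 1 copy, Mfap1a had 0.471 ± 0.0654 of the Mfap1b level in the controls and 0.606 ± 0.0600 in the cKO samples (SD, n = 3). This scale holds only if shared reads were left out, and it treats each read alone although the libraries were paired-end. Which copy contributed more transcripts is not settled by these counts.

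Relative to the partner genes within the same library, no scaling between samples enters. Per 100 counts of Prpf38a, Smu1, Ik and Zmat2 together, the pair had 7.57, 7.11 and 7.59 counts in controls 1 to 3 and 11.8, 11.8 and 12.0 counts in cKO 1 to 3. This was a ratio of group means of 1.60, with the same limit as the summed counts. The genes of this denominator all had negative log2 fold changes, which raises the ratio above the 1.52 of the summed CPM. Prpf38b, which is a relative of PRPF38A and not one of the B complex proteins named above, was left out of this denominator. With its counts added, a choice made after the values were seen, the ratio was 1.57. Mfap1a alone went from 5.50, 5.50 and 5.58 to 9.22, 9.27 and 9.68 (ratio 1.70), and Mfap1b from 2.07, 1.61 and 2.01 to 2.61, 2.55 and 2.29 (ratio 1.31). Neither copy overlapped between the groups on this scale.

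**Figure D3:**
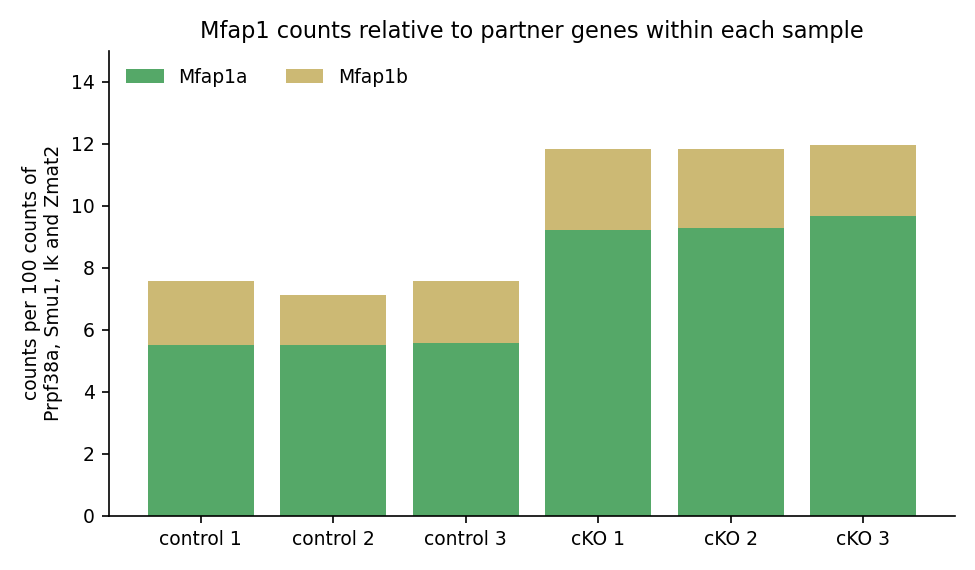
Counts of Mfap1a (green) and Mfap1b (yellow) per 100 counts of Prpf38a, Smu1, Ik and Zmat2 in the same library (vertical axis, stacked from 0), 1 bar per sample. The 3 control bars reach 7.11 to 7.59 and the 3 cKO bars 11.8 to 12.0.

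The Mfap1 genes also had the lowest counts of the group for their annotated exon length. Per kb of annotated exon, Ik had the highest control level, 87.1 ± 1.63 CPM per kb (SD, n = 3), followed by Smu1 with 56.2 ± 2.47. Prpf38b (46.9 ± 1.71), Prpf38a (44.4 ± 3.50) and Zmat2 (44.1 ± 1.61 CPM per kb) followed, and neighbours among these 3 overlapped between their control samples. Mfap1a stood at 7.67 ± 0.259 and Mfap1b at 4.75 ± 0.481 CPM per kb in the controls, and at 12.4 ± 0.589 and 5.94 ± 0.406 in the cKO samples. The Mfap1 values would be too low if reads that match both copies were left out. This would affect Mfap1b more, with 86.0% of its stretches shared against 53.3% for Mfap1a. The place of the Mfap1 genes below the others and the order of the copies are therefore not settled.

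The wider spliceosome was examined with 5 lists holding 75 other genes, all measured. None was called by edgeR or DESeq2, while 12 had an unadjusted edgeR p below 0.05, all 12 with a negative log2 fold change (over all tested genes, 866 positive and 904 negative). The log2 fold changes ran from -0.29 to 0.11, so that none reached that of Mfap1a or of Mfap1b. Of the 75, 66 were negative and 9 positive, with a median of -0.071, against a median of -0.0034 over all tested genes (7926 negative and 7651 positive). Leaving out each library in turn, the median of the 75 lay between -0.10 and -0.051, with 60 to 67 of them negative.

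The other proteins of the B complex (Wbp4, Ubl5, Prpf4b, Pqbp1 and Wbp11) had a median of -0.054, with 5 of 5 negative and 0 at an unadjusted p below 0.05. The median was -0.011 without cKO 2, -0.035 without control 2 and -0.069 without cKO 3. Prpf4b, a kinase of the splicing machinery, had the lowest p of these (log2 fold change -0.067, SE 0.0491, edgeR FDR 0.621). The 16 genes of the tri-snRNP, the particle that brings U4, U5 and U6, had a median of -0.053. It was -0.018 without cKO 2 and -0.071 without cKO 3. The lowest p was that of Snrnp40, a U5 protein, at -0.20 (SE 0.0699, edgeR FDR 0.382).

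The Sm and LSm proteins, small proteins that form rings around the spliceosomal RNAs, had the lowest median of the 5 lists. All 14 of their log2 fold changes were negative, with a median of -0.19, and 9 had an unadjusted edgeR p below 0.05, none of which passed adjustment. Snrpf had the lowest p, with 75.4 ± 2.61 CPM in the controls and 65.5 ± 4.17 CPM in the cKO samples (SD, n = 3, log2 fold change -0.20, edgeR FDR 0.377). The median stayed between -0.24 and -0.15 under all 12 alternative settings. The germ cell markers described above also had negative log2 fold changes. Their sums overlapped between the groups, with 566 CPM in control 1 and 595 CPM in cKO 1. The part of these markers in the Sm and LSm values was not tested.

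The 15 genes of the U1 and U2 particles had a median of -0.073, with 0 at an unadjusted p below 0.05. It was -0.046 without control 2 or without cKO 2, and -0.108 without cKO 3. Sf3b5, part of the unit that recognises the branch point, had the lowest p (log2 fold change -0.16, SE 0.0844, edgeR FDR 0.490). The 25 genes of the Prp19 complex and later steps had a median of -0.066. It was -0.028 without control 2, -0.041 without cKO 2 and -0.096 without control 1. Bcas2, a core member of the Prp19 complex, had the lowest p of all 75 genes (log2 fold change -0.21, SE 0.0656, edgeR FDR 0.377).

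**Figure D4:**
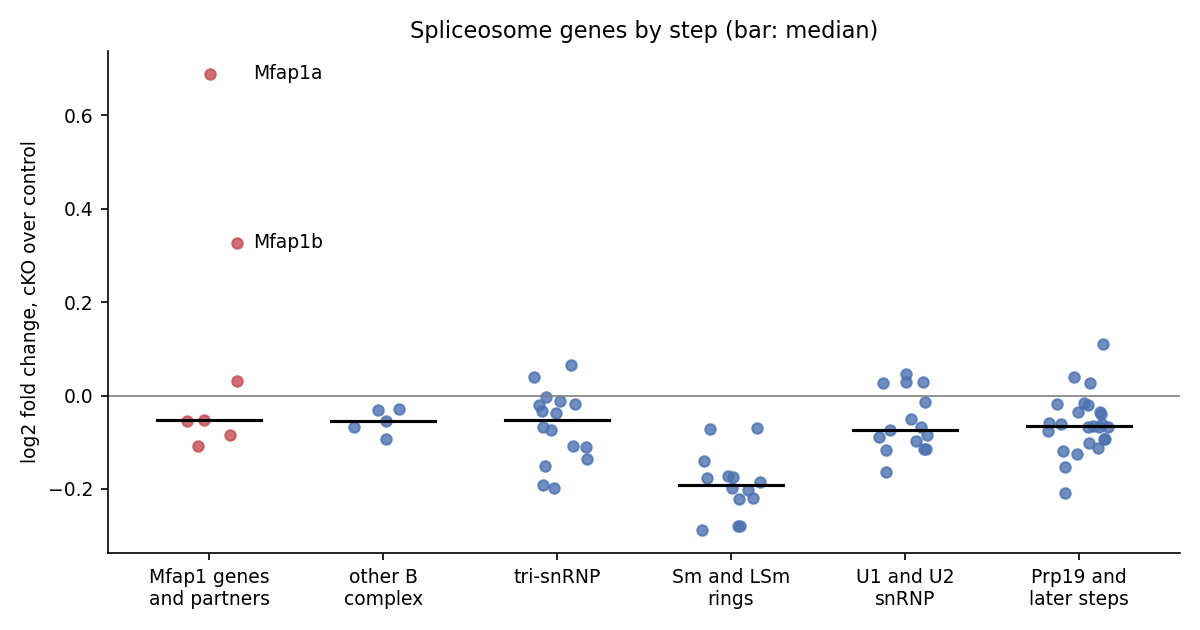
Log2 fold change, cKO over control (vertical axis), of the 7 genes (red) and of the 75 other spliceosome genes by list (blue), 1 point per gene with the list median as a bar. Mfap1a (0.69) and Mfap1b (0.33) lie above every other gene shown, the highest of which is at 0.11, and all 14 Sm and LSm genes lie below 0.

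To see whether the difference extended along the chromosome, the genes within 100 kb of the pair were examined. Apart from the pair, 9 were tested, and 1 of them had an unadjusted edgeR p below 0.05, a share near the 11.4% of all tested genes. This was Serinc4, of the serine incorporator family, with 0.677, 0.611 and 0.390 CPM in controls 1 to 3 and 1.15, 1.20 and 1.12 CPM in cKO 1 to 3. The groups did not overlap, but the counts were low, at 11 to 27 in the controls and 37 to 46 in the cKO samples. Its log2 fold change was 1.08 (SE 0.295, edgeR FDR 0.377), which did not pass the test. Serinc4 overlaps Serf2 on the opposite strand, and Serf2, with at least 2554 counts in every library, had a log2 fold change of -0.10 and lay lower in each cKO sample than in each control (edgeR unadjusted p = 0.0781).

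Wdr76, whose start is the one next to that of Mfap1a, did not pass the test. It lay at 36.7, 42.5 and 48.2 CPM in the controls and at 42.4, 34.1 and 38.1 CPM in the cKO samples, groups that overlapped (log2 fold change -0.16, edgeR FDR 0.598). Pdia3, a chaperone of the endoplasmic reticulum and the most abundant gene of the region, had a log2 fold change of -0.026. Hypk (-0.071), Catsper2 (-0.050), Frmd5 (0.057), Ell3 (0.18) and Ckmt1 (-0.23) likewise overlapped between the groups.

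**Figure D5:**
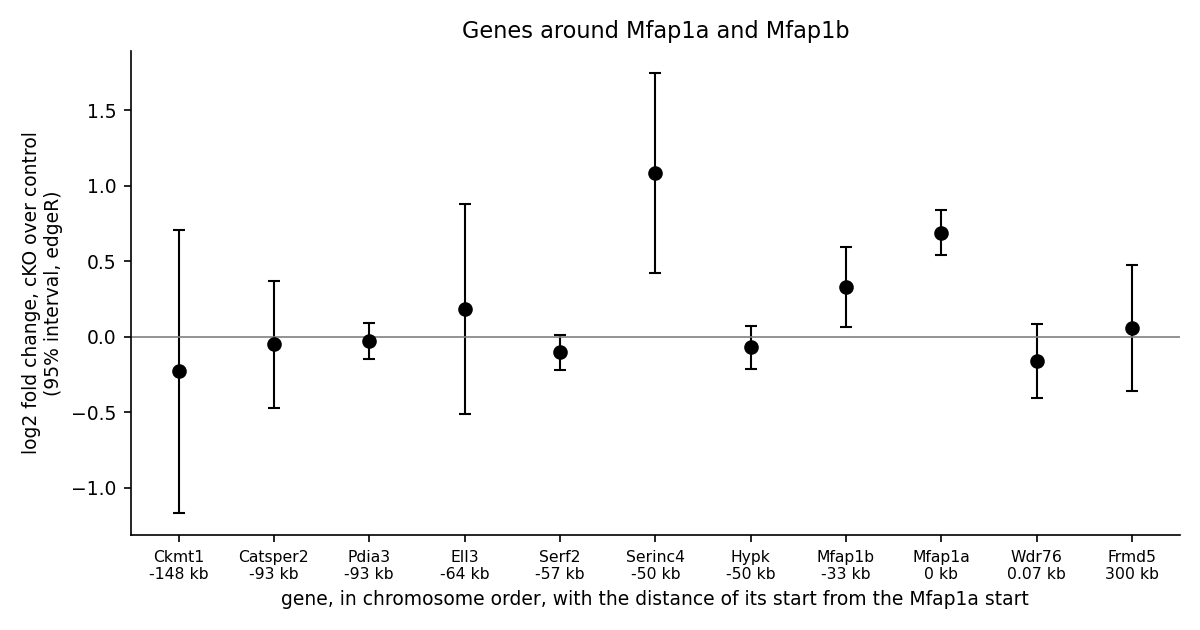
Log2 fold change, cKO over control, with its 95% interval from edgeR (vertical axis) for the 11 tested genes in and around the Mfap1 pair, in chromosome order, each with the distance of its start from that of Mfap1a. The intervals of Mfap1a, Mfap1b and Serinc4 lie above 0 and those of the other 8 include 0.

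Of the 6 genes called by edgeR, 4 lay on chromosome 2, which held 7.91% of the tested genes: Mfap1a, Nr5a1, Nr6a1 and Ttc30b. This count includes Mfap1a, which chose the list, and the adjacent genes Nr5a1 and Nr6a1, so nothing is read from it. Of the 111 genes called by DESeq2, 11 (9.91%) lay on chromosome 2, against 7.84% of the genes it gave an adjusted p. Nr5a1, whose regulatory sequence drives the Cre, had a log2 fold change of 0.66, close in size to that of Mfap1a, and lay 82.8 Mb from it. Nr6a1, beside Nr5a1, had 1.88, and Ttc30b, a gene of intraflagellar transport, had 0.85.

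The remaining genes were spread over other chromosomes. Prpf38a (chr4:108564867-108579336) and Smu1 (chr4:40735649-40757885) lie on chromosome 4, Prpf38b on chromosome 3 (chr3:108902807-108911704), all on the minus strand in mm10. Ik (chr18:36744656-36757639) and Zmat2 (chr18:36793923-36799660), both on the plus strand, are neighbours with 36.3 kb between them.

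To rank genes by likeness to Mfap1a, each gene's log2 CPM was set relative to its control mean, and the root mean square difference from Mfap1a over the 6 samples was taken. Endou, which encodes an endoribonuclease, was nearest (0.0751), followed by Ablim3 (0.104), an actin-binding protein, and Ppargc1b (0.106), a transcriptional coactivator of energy metabolism. Endou had only 6 to 25 counts per library. Among 15576 genes Mfap1b ranked 365 (0.294), Prpf38b 5157, Ik 8686, Prpf38a 8737, Zmat2 10011 and Smu1 10791. The ranking is anchored on the Mfap1a values that chose the list, and it follows mostly from the fold changes given above. Nothing further is read from it.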

How the data were processed

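Poly(A) RNA from E12.5 testes was sequenced in stranded, paired-end libraries. The authors aligned the reads to mm10 with STAR 2.5 and counted them per RefSeq gene with featureCounts of Subread 1.5.0-p1, per the labels and the study's methods. The deposited values are raw counts, with no normalization. Samples were grouped by genotype as labelled. All genes were tested in 1 fit with edgeR 4.0.16 (quasi-likelihood F-test, filterByExpr with a minimum count of 10, TMM, prior count 2 for log2 CPM), and p-values were adjusted by Benjamini-Hochberg over 15577 genes (called at FDR below 0.05). DESeq2 1.42.0, limma-voom 3.58.1, DESeq-type scaling, other filters, a replicate block and leaving out each library were the alternatives. The code was tested on simulated data. Levels per kb used GENCODE vM21 exons within each gene's span in the count table. The members and gene lists were chosen with earlier results of these data known. Named were the 7 genes, Ppp1r3c, the lowest-p gene of each spliceosome list and any gene called there, tested genes within 100 kb of the pair, called genes on chromosome 2, the 3 genes most like Mfap1a, and Xist and Fst. Other genes were named as cell type markers. The samples came from pooled embryos, and p-values measure the spread between these samples.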

Additional observations from a re-analysis of the deposited data

How the results depend on the processing

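Of the 12 alternative settings, 8 called Mfap1a and no other of the 7 genes. With the replicate number as a block, 0 were called (Mfap1a edgeR FDR 0.263, log2 fold change 0.69), and over the runs that left out 1 library the count ranged from 0 to 1. Same-numbered samples did not deviate together (correlations -0.20, -0.27 and -0.13), so the numbers give no pairing of the samples. The direction of Mfap1a, Mfap1b, Smu1, Ik and Zmat2 was kept in all 12 settings. Prpf38a changed sign without control 2 (0.0033, range -0.10 to 0.0033 over the libraries left out), as did Prpf38b (-0.0091, range -0.0091 to 0.053), both within their intervals. The cause was not tested. None of the 75 other spliceosome genes was called in any setting. The summed level of Mfap1a and Mfap1b kept its direction in the 11 alternatives run for it (log2 ratio 0.59 to 0.63). Limma-voom was not run for this sum, which is not a fitted value. Counting error limits Mfap1b most, with 155 counts in control 1.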
